A study of Mus musculus with 4 samples.

Results

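Integrin and laminin subunit genes were measured in the cranial neural tube of mouse embryos with and without Wnt1-Cre deletion of the Hippo kinases Lats1 and Lats2. The members were taken by gene symbol: of 42 protein-coding genes whose names follow the pattern of integrin alpha, integrin beta or laminin alpha, beta and gamma genes, 5 were left out as binding proteins or by name, and 3 (Itgad, Itgax and Itgb2l) had 0 counts in every library. The 34 genes left, of 54532 in the count table, were 15 integrin alpha subunits, 8 integrin beta subunits and 11 laminin chains, and each had at least 20 counts summed over the libraries.

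Integrins are receptors made of an alpha and a beta subunit, which span the cell membrane and tie the extracellular matrix to the actin cytoskeleton. The pair decides the ligand: some bind laminin, some collagen, and others the RGD sequence of fibronectin or of the latent form of TGF-beta. Laminins are trimers of an alpha, a beta and a gamma chain that polymerise into the sheet of a basement membrane, and such a membrane lies under the neuroepithelium, the surface ectoderm and the blood vessels of the embryonic head. Subunits without a partner are generally held back in the cell, so the RNA level of a single subunit does not give the amount of the receptor or trimer.

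The 4 libraries came from separate embryos at embryonic day 10.5, with 2 per group. Control embryos lacked E2f1 Tg(Wnt1-cre)2Sor/+, and the labels do not say whether they carried floxed alleles. DCKO embryos were flox/flox for Lats1 and for Lats2 and carried E2f1 Tg(Wnt1-cre)2Sor/+, a transgene that expresses Cre under the control of Wnt1, a gene of the dorsal neural tube and of neural crest precursors, and so in part of the dissected tissue. Since the transgene was present in DCKO embryos alone, its own effects and those of the deletions cannot be told apart.

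Library totals lay between 41798361 and 55137810 counts. Levels are given as CPM, read counts relative to a TMM-scaled library total, unless TPM is named. Lats1 had 44.2 and 65.6 CPM in the Control libraries and 30.0 and 29.7 in the DCKO libraries, lower in both DCKO libraries without passing the test used below (log2 fold change -0.88, adjusted p 0.0538). Lats2 had 26.7 and 13.3 CPM against 21.2 and 35.3, so its groups overlapped, and whole-gene counts do not show whether floxed exons were lost. Xist, which silences an X chromosome in female cells, was counted 10837 and 7786 times in Control but 8 and 22 times in DCKO, so embryo sex and genotype cannot be told apart. Markers of neural progenitors, the cells of the labelled tissue, were present in every library, with a summed level of 1712.7 and 1963.4 CPM in the Control libraries and 502 and 389 in the DCKO libraries, and 6 of 7 fell. Neuron markers summed to 927 and 1188.7, then 553 and 238, and 3 of 6 fell. Both DCKO libraries lay below both Control libraries for 7 of 7 progenitor and 6 of 6 neuron markers. Over all tested genes that share was 32.9%. Markers of neural crest and Schwann cell precursors summed to 12.2 and 13.3, then 14.5 and 86.5, and 1 of 4 tested, Erbb3, rose. Rose and fell mean an adjusted p under 0.05 in the test below, where 8.93% of all tested genes rose and 8.11% fell. In 4 other lists most markers rose: 9 of 10 of surface ectoderm (summed CPM 18.6 and 22.0 in Control, 349 and 473 in DCKO), 5 of 8 endothelial (155 and 147, then 669 and 393), 5 of 7 mural with 1 lower (228 and 219, then 561 and 786) and 6 of 8 of cranial mesenchyme (122 in each Control library, then 332 and 369). No marker of these 4 lists was at 0 in a group. These cell types express many integrins and laminins, and the part of cell composition in the results that follow was not tested. In bulk tissue, fewer cells of a type and less RNA per cell cannot be told apart.

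Most integrin and laminin genes that passed the test were higher in DCKO. Of the 34 members, all of which passed the filter on low counts, 18 rose and 1, Itgb8, fell (edgeR quasi-likelihood test, Benjamini-Hochberg adjusted p under 0.05 over all tested genes), and 15 did not pass. Over all 19207 tested genes, 17% passed (3274), 8.93% as higher and 8.11% as lower. The rises comprised 7 of 15 integrin alpha subunits, 4 of 8 beta subunits and 7 of 11 laminin chains. Both DCKO libraries lay above both Control libraries for 27 members and below them for 2, where 66.4% of all tested genes had groups without overlap, 33.6% with DCKO above and 32.9% with DCKO below. The median log2 fold change was 1.73 over the members, 0.98 over integrin alpha subunits, 1.86 over beta subunits and 2.29 over laminin chains, and 0.03 over all tested genes. Fewer calls were made with a Control library left out: 9 of the 19 remained without Control 1 and 5 without Control 2, where the 2 DCKO libraries alone set the spread and 1.87% and 1.11% of all genes passed. Without DCKO 1, 18 remained (all but Itgb8), and without DCKO 2 all 19 did, with 21.8% and 25.3% of all genes passing. By DESeq2, 22 members passed, where 25.2% of all genes did. Genes of a ribosomal RNA cluster on chromosome 17, called ribosomal RNA genes below, made up 13.2% and 12.4% of counts in Control. In DCKO they made up 24.7% and 30.3%. Scaled to library totals in place of TMM, 1219 of all genes were higher and 3744 lower, against 1716 and 1558, and Itga4 (adjusted p 0.0550), Itga6 (0.0790) and Lama1 (0.0534) no longer passed. By limma-voom, Itga4 (0.0589) and Itga11 (0.0529) did not pass. By limma on log2(TPM + 1), Itga5 (0.118) and Itga6 (0.239) did not pass.

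**Figure D1:**
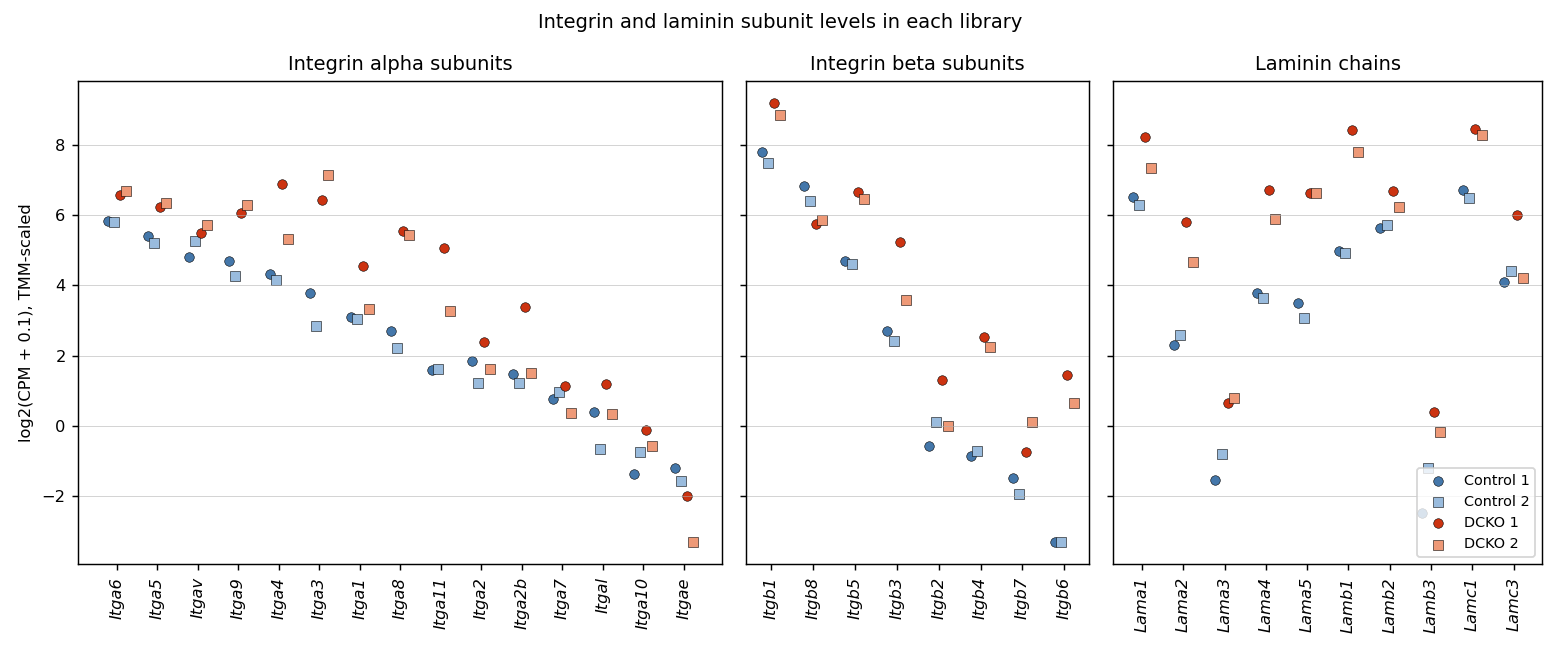
Levels of the members described here in each library, as log2(CPM + 0.1) with TMM scaling; circles and squares are replicates 1 and 2, blue Control and red DCKO. Itgb8 is the member with a call whose red points lie below the blue, and Itgb6 has 0 counts in both Control libraries.

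**Figure D2:**
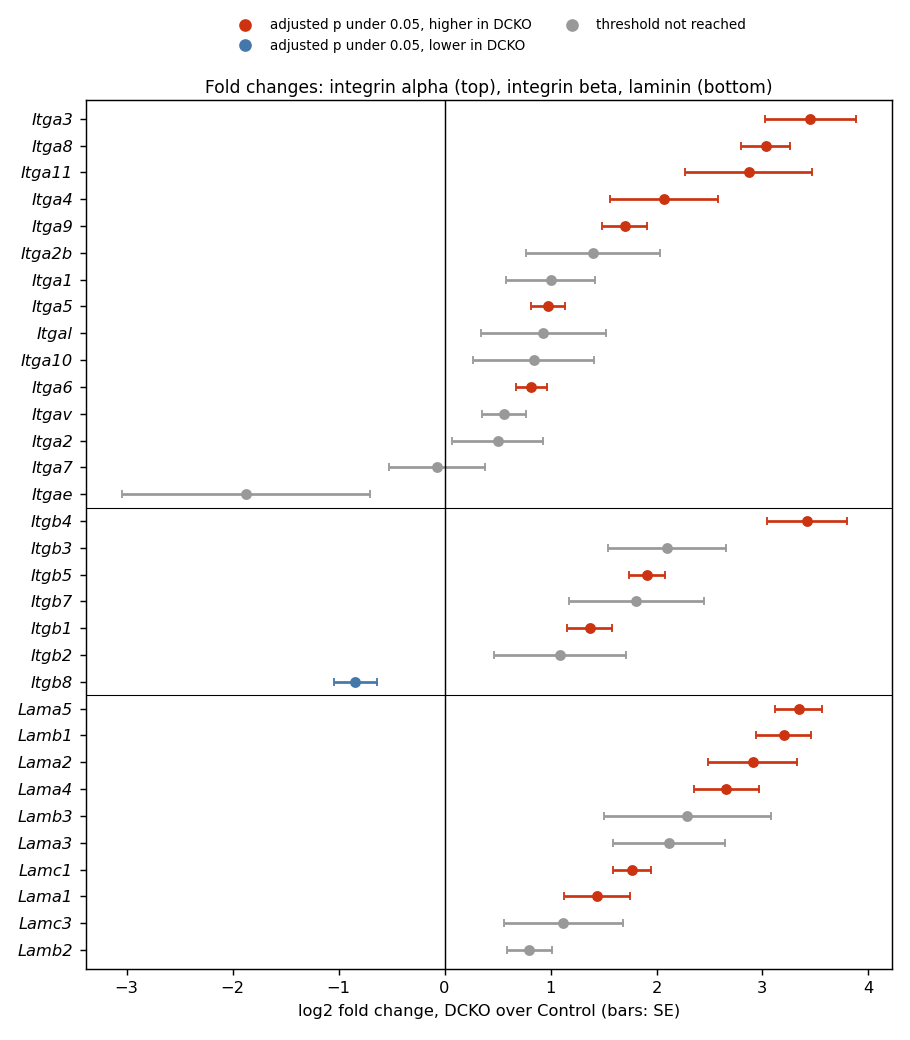
Log2 fold change of DCKO over Control from the edgeR fit, with bars of 1 standard error (SE), for the members described here; Itgb6 is left out because its Control counts are 0. Red marks rises and blue falls past the adjusted threshold, and grey marks members that did not reach it, such as Itgav at 0.56 and Lamb2 at 0.80.

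Among the beta subunits, Itgb1, the common partner of most alpha subunits (chromosome 8, 128685654 to 128733200 on GRCm38), was the most abundant in every library. It had 224 and 181 CPM in the Control libraries and 587 and 462 in the DCKO libraries, a rise of 1.37 on the log2 scale (SE 0.21, adjusted p 0.0169). Itgb5, a partner of integrin alpha v in vitronectin receptors (chromosome 16, 33829665 to 33949338), had 25.9 and 24.5 CPM in the Control libraries and 101 and 88.6 in the DCKO libraries (log2 fold change 1.91, SE 0.17, adjusted p 0.00743). The libraries of each group were close to each other and far from those of the other group. Itgb8, whose product also pairs with alpha v and presents latent TGF-beta for activation (chromosome 12, 119158022 to 119238802), went the other way, with 114 and 84.0 CPM in the Control libraries and 53.5 and 57.6 in the DCKO libraries (-0.84, SE 0.20, adjusted p 0.0469). The call of Itgb8 was close to the threshold and was lost without Control 1 (adjusted p 0.275), Control 2 (0.106) or DCKO 1 (0.0683), with values of -0.60, -1.07 and -0.79, and by limma on log2(TPM + 1) (-0.87, adjusted p 0.0969). Without Control 2, 0 of the 5 called beta subunits passed, and their adjusted p lay between 0.0513 and 0.110. Without Control 1, Itgb5 and Itgb6 passed and the other 3 had 0.0668 to 0.275.

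In TPM, transcript levels that are scaled by gene length so that levels of different genes can be compared, the make-up of the beta class shifted. Itgb8 held 16.0% and 15.4% of summed beta TPM in the Control libraries and 3.31% and 5.04% in DCKO. Itgb5 held 9.42% and 12.2%, then 16.8% and 17.8%. Itgb1 kept the largest share, at 72.7% and 70.1%, then 75.2% and 74.8%. After Itgb1, Control tissue had Itgb8 by level (21.1 ± 7.14 TPM, SD, n = 2) with Itgb5 next (14.1 ± 1.89), and the libraries of these genes did not overlap. In DCKO Itgb5 came after Itgb1 (45.4 ± 0.360) with Itgb8 next (10.9 ± 2.82). The ratio of Itgb5 to Itgb8 TPM, which no scaling between libraries can change, was 0.590 and 0.795 in Control and 5.06 and 3.54 in DCKO, a log2 difference of 2.63. With 2 libraries against 2, the exact two-sided permutation p of such a ratio was 0.333, the smallest this design allows.

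Integrin alpha v itself did not pass the test, while its partners went in both directions. Itgav, which takes part in RGD receptors with beta1, beta3, beta5, beta6 and beta8, had 28.2 and 38.2 CPM in the Control libraries and 44.6 and 52.9 in the DCKO libraries (log2 fold change 0.56, SE 0.21, adjusted p 0.125). Itgb6, an epithelial subunit whose pair with alpha v also activates latent TGF-beta, had 0 counts in both Control libraries and 105 and 54 counts in DCKO. It was at least 38.1-fold higher in DCKO, against a floor of 3 counts per Control library, with an adjusted p of 0.0129. Its level stayed low, at 0.766 and 0.469 TPM in DCKO. Itgb3, the beta subunit of the platelet receptor and of a vascular alpha v pair, had 6.37 and 5.26 CPM in the Control libraries and 37.9 and 11.8 in the DCKO libraries, where DCKO 1 stood far above DCKO 2 (log2 fold change 2.1, SE 0.56, adjusted p 0.0563). It passed by DESeq2 (2.05, adjusted p 0.000476) and by edgeR with no filter on low counts (2.06, adjusted p 0.0424). It did not pass by limma-voom (1.88, adjusted p 0.0826) or with scaling to library totals (1.75, adjusted p 0.0674). The log2 fold change of Itgb3 was 1.01 without DCKO 1, 2.70 without DCKO 2, 2.24 without Control 1 and 1.93 without Control 2. Of the 5 textbook alpha v partners, 3 (Itgb1, Itgb5 and Itgb6) thus rose, 1 fell and 1 did not pass.

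Of the 3 alpha subunits of laminin receptors, Itga3 and Itga6 rose and Itga7 did not pass. Itga3, which with beta1 binds the laminins of epithelial and vascular basement membranes (chromosome 11, 95044474 to 95076801), had 13.8 and 7.05 CPM in the Control libraries and 85.7 and 142 in the DCKO libraries. The resulting difference of 3.45 on the log2 scale (SE 0.43, adjusted p 0.0118) was the largest fitted among alpha subunits, and it kept its call with any 1 library left out. Itga6, the laminin receptor subunit of many stem and progenitor epithelia and the partner of beta1 or beta4, had 56.8 and 55.4 CPM in the Control libraries and 94.5 and 103 in the DCKO libraries (0.82, SE 0.15, adjusted p 0.0269). By TPM, Itga6 led the alpha class in Control (23.2 ± 2.73), while in DCKO Itga3 (36.6 ± 17.6) and Itga6 (33.5 ± 6.10) overlapped. This order depended on the length scaling, since summed exon lengths were 9025 bases for Itga6, 4933 for Itga5 and 5710 for Itga3. By counts over summed exon length, Itga5 was above Itga6 in both Control libraries, and Itga3 was above Itga6 in both DCKO libraries. Itga3 held 6.60% and 4.07% of summed alpha TPM in Control and 15.5% and 27.7% in DCKO. Itga7, the laminin receptor subunit of muscle, had 1.60 and 1.86 CPM in the Control libraries and 2.1 and 1.19 in the DCKO libraries, with overlapping groups. Itgb4, the subunit with a long cytoplasmic tail that joins alpha6 in hemidesmosomes, the rivets of stratified epithelia, had 0.447 and 0.514 CPM in the Control libraries and 5.67 and 4.63 in the DCKO libraries (3.42, SE 0.38, adjusted p 0.00944). It made up 0.0795% and 0.124% of summed beta TPM in Control and 0.692% and 0.534% in DCKO. Itgb4 had an adjusted p of 0.0668 without Control 1 and the same value without Control 2, and Itga6 had 0.183 and 0.201.

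Itga4, Itga5, Itga8 and Itga9, alpha subunits that bind fibronectin and other matrix ligands, rose. Itga5, the main fibronectin receptor subunit, had 42.7 and 37.1 CPM in the Control libraries and 75.6 and 81.5 in the DCKO libraries (0.98, SE 0.16, adjusted p 0.0208). Itga8, the receptor subunit for nephronectin, had 6.42 and 4.58 CPM, then 46.5 and 43.3 (3.03, SE 0.23, adjusted p 0.00609), and its DCKO libraries lay close together. Itga9, which binds tenascin and other matrix proteins, had 25.6 and 19.2 CPM, then 66.6 and 78.9 (1.70, SE 0.21, adjusted p 0.0120). Itga4, which binds fibronectin and the adhesion molecule VCAM1 on migrating and blood-forming cells, had 19.8 and 17.7 CPM, then 118 and 39.8 (2.07, SE 0.51, adjusted p 0.0473). The DCKO libraries of Itga4 differed by far more than those of the other 3, and without DCKO 1 its log2 fold change was 1.08 (adjusted p 0.0107). Across the 7 called alpha subunits, Itga3, Itga8 and Itga9 kept their call without Control 1, and Itga3 and Itga8 without Control 2. The rest then had an adjusted p of 0.115 to 0.183 and of 0.0800 to 0.201.

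Of the 4 collagen-binding alpha subunits, only Itga11 passed. It had 2.89 and 2.96 CPM in the Control libraries and 33.3 and 9.61 in the DCKO libraries (2.87, SE 0.60, adjusted p 0.0331). This subunit marks mesenchymal cells that pull on fibrillar collagen. The size depended on the DCKO library: the log2 fold change was 1.71 without DCKO 1 and 3.50 without DCKO 2, and without Control 1 or Control 2 the adjusted p was 0.146 and 0.145. Itga1 had 8.50 and 8.22 CPM in the Control libraries and 23.4 and 9.99 in the DCKO libraries (1.00, adjusted p 0.152), and passed without DCKO 2 (1.49, adjusted p 0.00525) but not without DCKO 1 (0.25, adjusted p 0.452). Itga2, with 3.48 and 2.23 CPM against 5.12 and 2.98, overlapped between groups. Itga10, of cartilage, had 0.287 and 0.494 CPM in the Control libraries and 0.825 and 0.568 in the DCKO libraries (0.84, SE 0.57, adjusted p 0.341). Its groups did not overlap, but it stayed under 1 CPM in every library.

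The subunits of blood cells were low and did not pass. Itga2b, the alpha subunit of the platelet fibrinogen receptor and an early marker of blood progenitors, had 2.67 and 2.25 CPM in the Control libraries and 10.3 and 2.76 in the DCKO libraries (1.40, SE 0.63, adjusted p 0.176), so that only DCKO 1 stood out. Without DCKO 2 it passed (2.06, adjusted p 0.00642), and without DCKO 1 it had 0.16. Itgb2, the beta subunit of leukocytes, had 0.575 and 0.968 CPM, then 2.37 and 0.893, and its partner Itgal had 1.21 and 0.534, then 2.17 and 1.16, each with overlapping groups. Itgb2 had a log2 fold change of 1.09, and 0.21 without DCKO 1, and Itgal had 0.93, and 1.63 without Control 1. Itgae, of lymphocytes in epithelia, had 21, 12, 6 and 0 counts from Control 1 to DCKO 2 (log2 fold change -1.87, SE 1.17, adjusted p 0.302), and -0.93 without DCKO 2, while without DCKO 1 its DCKO counts were 0. Its leukocyte partner Itgb7 had 16, 8, 20 and 36 counts (1.81, SE 0.64, adjusted p 0.108), which was not mirrored in TPM, at 0.654 and 0.307 in Control and 0.327 and 0.548 in DCKO.

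Laminin alpha chains rose broadly, with 4 of 5 past the threshold. Lama5, of epithelial and vascular basement membranes (chromosome 2, 180176373 to 180225859), had 11.3 and 8.30 CPM in the Control libraries and 99.9 and 99.7 in the DCKO libraries (3.34, SE 0.22, adjusted p 0.00583). Its DCKO libraries were almost equal. Lama4, a chain of vessels and mesenchyme, had 13.6 and 12.4 CPM, then 105 and 59.3 (2.66, SE 0.31, adjusted p 0.0105). Lama2, the chain of muscle and peripheral nerve, had 4.87 and 5.95 CPM, then 56.0 and 25.2 (2.91, SE 0.42, adjusted p 0.0159), and 2.22 without DCKO 1. Lama1, the chain of the earliest embryonic basement membranes, had 92.1 and 78.5 CPM, then 300 and 163 (1.44, SE 0.31, adjusted p 0.0358). DCKO 1 was well above DCKO 2 for Lama1, Lama2 and Lama4. By TPM, Lama1 led the alpha chains in every library, but its share was 69.7% and 64.1% in Control and 47.1% and 42.7% in DCKO. The shares of Lama4 (18.2% and 19.1%, then 27.8% and 26%) and Lama5 (8.24% and 9.22%, then 13.8% and 21.8%) were larger in both DCKO libraries. The order of these chains depended on the length scaling: by counts over summed exon length, Lama4 went from 9.71% to 16.0% and Lama5 from 7.71% to 22.0%, so that Lama5 was above Lama4 in DCKO. Without Control 1, Lama1, Lama2 and Lama4 had adjusted p of 0.0519 to 0.135, and without Control 2 these 3 and Lamc1 had 0.0613 to 0.180.

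The beta chains exchanged rank. Lamb1, the beta chain of most embryonic laminins (chromosome 12, 31265234 to 31329644), had 31.4 and 30.0 CPM in the Control libraries and 342 and 223 in the DCKO libraries (3.20, SE 0.26, adjusted p 0.00653), and kept its call with any 1 library left out. Lamb2, the beta chain typical of mature vessels, synapses and muscle (chromosome 9, 108479736 to 108490530), had 49.9 and 52.5 CPM, then 104 and 74.8 (0.80, SE 0.21, adjusted p 0.0535). Lamb2 missed the threshold here but passed with upper quartile scaling (adjusted p 0.0497), by DESeq2 (0.0162) and by limma-voom (0.0488). It did not pass with RLE scaling (0.0541), with library totals (0.161) or without a filter on low counts (0.0631). Its log2 fold change was 0.54 without DCKO 1 and 1.02 without DCKO 2. In Control, Lamb2 was the more abundant, with 18.7 and 16.6 TPM against 10.6 and 9.73 for Lamb1. In DCKO the order was reversed, with 31.0 and 25.6 TPM for Lamb2 against 82.9 and 62.2 for Lamb1. Lamb1 accordingly went from 36.1% and 36.8% of summed beta chain TPM to 72.4% and 70.7%. The ratio of Lamb1 to Lamb2 within a library was 0.567 and 0.587 in Control and 2.67 and 2.43 in DCKO, a log2 difference of 2.14, with SDs of 0.04 and 0.10 within the groups.

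**Figure D3:**
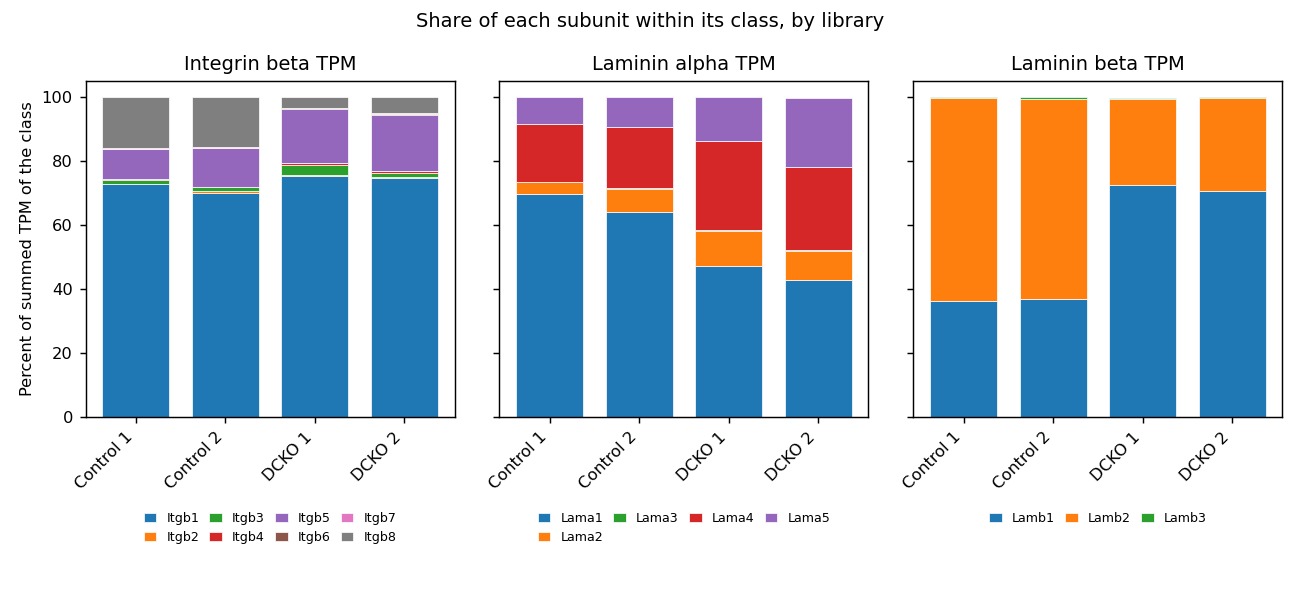
Share of each subunit in the summed TPM of its class, in percent, for integrin beta subunits and for laminin alpha and beta chains, with a stacked bar per library. Itgb8 shrinks from 16.0% and 15.4% in Control to 3.31% and 5.04% in DCKO, and Lamb1 grows from 36.1% and 36.8% to 72.4% and 70.7%.

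Among gamma chains, Lamc1, present in nearly all laminins (chromosome 1, 153218922 to 153332786), had 106 and 89.1 CPM in the Control libraries and 352 and 313 in the DCKO libraries (1.77, SE 0.18, adjusted p 0.00806). It held 81.7% and 75.9% of summed gamma TPM in Control against 77.3% and 88.1% in DCKO, and its share overlapped between the groups. Lamc3, a chain of vessels and the nervous system, had 17.1 and 21.0 CPM, then 64.4 and 18.5 (1.12, SE 0.56, adjusted p 0.212), so that DCKO 2 lay between the Control libraries. Without DCKO 1 its log2 fold change was -0.05, and without DCKO 2 it was 1.75 (adjusted p 0.00383).

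Lama3 and Lamb3, chains of epithelial basement membranes, were scarce and missed the threshold, though both DCKO libraries lay above both Control libraries for each. Lama3 had 0.240 and 0.474 CPM in Control, then 1.47 and 1.62 (2.12, SE 0.53, adjusted p 0.0503). It passed with RLE scaling (0.0495), without ribosomal RNA genes (0.0496), by limma-voom (0.0389) and by DESeq2 (0.0220). It did not pass with upper quartile scaling (0.0510), with library totals (0.0595) or without a filter on low counts (0.0520). Its log2 fold change was 1.69 without Control 1 and 2.65 without Control 2. Lamb3 had 0.0799 and 0.336 CPM, then 1.22 and 0.785 (2.29, SE 0.79, adjusted p 0.102), with 1.57 without Control 1 and 3.58 without Control 2. By TPM they stayed low in DCKO, with 0.181 and 0.236 for Lama3 and 0.487 and 0.247 for Lamb3. Surface ectoderm markers were higher in the same libraries, among them Trp63, the transcription factor of stratified epithelia, with 0.0319 and 0.0395 CPM in the Control libraries and 17.5 and 17.6 in the DCKO libraries, and their part in these values was not tested.

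Sequences before the gene start are shown for the beta chains that exchanged rank and for the 2 most abundant integrin beta subunits of DCKO tissue. They are RefSeq promoter windows on GRCm38.p6, 5′ to 3′ on the gene's strand and in lower case, cut where the GENCODE M21 gene begins. Capitals mark the TEAD motif GGAATG, the letters bound by the DNA-binding partners of YAP, and the AP-1 motif TGANTCA, each searched on both strands.
Lamb1 (chr12:31265043-31265233, strand +): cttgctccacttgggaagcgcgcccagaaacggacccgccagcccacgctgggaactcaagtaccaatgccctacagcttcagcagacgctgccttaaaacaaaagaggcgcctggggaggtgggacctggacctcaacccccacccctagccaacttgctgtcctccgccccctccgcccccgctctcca
Lamb2 (chr9:108479612-108479735, strand +): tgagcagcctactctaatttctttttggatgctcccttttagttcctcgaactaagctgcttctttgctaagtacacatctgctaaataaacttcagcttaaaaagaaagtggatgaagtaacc
Itgb1 (chr8:128685404-128685653, strand +): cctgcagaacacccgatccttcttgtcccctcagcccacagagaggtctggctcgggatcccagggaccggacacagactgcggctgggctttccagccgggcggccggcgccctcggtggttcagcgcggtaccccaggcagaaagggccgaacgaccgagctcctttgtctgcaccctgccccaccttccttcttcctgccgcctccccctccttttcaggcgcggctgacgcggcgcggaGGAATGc
Itgb5 (chr16:33829415-33829664, strand +): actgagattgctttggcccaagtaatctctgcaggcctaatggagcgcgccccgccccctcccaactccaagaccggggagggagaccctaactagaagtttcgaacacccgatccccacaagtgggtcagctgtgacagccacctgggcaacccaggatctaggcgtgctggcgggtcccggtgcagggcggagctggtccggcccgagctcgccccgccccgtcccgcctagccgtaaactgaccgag
The search covered the whole stretch of 250 bases before the RefSeq start. Windows were at hand for 21 of the 34 members, some with more than 1 start, giving 24 windows. The TEAD motif lay in 3 of them (Itgb1, Itga10 and 1 of the Lamb3 starts), or 12.5%, against 12.6% of all 32851 windows of the table. In Itgb1 it began 7 bases before the start. The AP-1 motif lay in 0 of the 24 windows and in 6.75% of all windows. A match is a run of letters and not a measured binding site.

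Read by textbook receptor, 21 integrin pairs had both subunits among the members. Both subunits rose in 8 of them: beta1 with alpha3, alpha4, alpha5, alpha6, alpha8, alpha9 or alpha11, and alpha6 with beta4. All but the last share the call of Itgb1, so the pairs are not independent counts. In 8 pairs a single subunit rose, and in 5 none did. Itgav with Itgb8 was the pair with a fallen subunit. In all 12 pairs of Itgb1 the alpha subunit had the lower TPM in every library. For alpha v with beta5, the scarcer RNA by TPM was Itgav in every library. For alpha v with beta8 it was Itgav in Control (10.8 and 10.6 TPM) and Itgb8 in DCKO (8.93 and 12.9 TPM). By CPM, Itgb8 lay above Itgav in both DCKO libraries (53.5 and 57.6 against 44.6 and 52.9), with similar summed exon lengths of 11060 and 10744 bases. Which of them was scarcer in DCKO thus depended on the length scaling. Of 14 laminin trimers, all 3 chains rose in 4, namely laminin-111, laminin-211, laminin-411 and laminin-511, and some but not all in 10. Those 4 trimers all share the calls of Lamb1 and Lamc1. For laminin-111 the scarcest chain was Lamb1 in Control (10.6 and 9.73 TPM) and Lama1 in DCKO (42.3 and 27.2 TPM). RNA levels do not show which pairs and trimers formed.

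Genes that work with these subunits were taken from a list of 25 basement membrane partners, ligands and linkers to actin, of which 12 rose, 0 fell and 13 did not pass (19 had an unadjusted p under 0.05, as did 6896 of all 19207 tested genes). The median log2 fold change of the list was 1.27. Npnt, which encodes the alpha8 ligand nephronectin, had 6.04 and 5.02 CPM in the Control libraries and 48.4 and 52.9 in the DCKO libraries (3.19, SE 0.19, adjusted p 0.00571), beside the rise of Itga8. Hspg2, the heparan sulfate proteoglycan perlecan of basement membranes, had 89.8 and 91.6 CPM, then 496 and 579 (2.57, SE 0.17, adjusted p 0.00585). Nid2, a nidogen that links laminin to collagen IV, had 41.7 and 36.8 CPM, then 215 and 171 (2.30, SE 0.19, adjusted p 0.00714). The network chains and the fibronectin gene were abundant in both groups. Col4a1 and Col4a2, the collagen IV chains of most basement membranes, had 182 and 189 CPM and 162 and 166 CPM in Control, and 914 and 797 CPM and 707 and 743 CPM in DCKO (2.21 and 2.15, adjusted p 0.00609 and 0.00602). Fn1, the ligand of alpha5 and alpha4, had 252 and 241 CPM, then 1034.1 and 915 (1.98, SE 0.16, adjusted p 0.00684). These 6 had the smallest p-values of the list. Nid1, Bcam, Fermt1, Fermt2, Tln1 and Parva also rose, and the log2 fold changes of the 13 that did not pass ran from -0.35 for Plec, which ties beta4 to keratin filaments, to 2.13 for Col17a1, a collagen of hemidesmosomes. Ptk2, the focal adhesion kinase, and Agrn, the matrix proteoglycan agrin, each had 0.03, and were picked out after their values were seen. Without Control 1, 8 of the 12 remained, and without Control 2, 7, the rest having adjusted p of 0.0830 to 0.235 and 0.0504 to 0.222. Nid1, Fermt2, Tln1 and Parva lost their call in both cases.

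The 2 DCKO embryos were unlike in part of the family. DCKO 1 was more than 1.5 times DCKO 2 for 16 of the 34 members (47.1%). DCKO 2 was more than 1.5 times DCKO 1 for 2 (5.88%). Itgae, with 6 counts in DCKO 1 and 0 in DCKO 2, has no ratio and is not among the 16. Over the 18947 tested genes with counts in DCKO 2, the shares were 16.2% and 17.8%. The widest gaps, as ratios of DCKO 1 to DCKO 2 CPM, were 3.73 for Itga2b, 3.48 for Lamc3, 3.47 for Itga11, 3.21 for Itgb3 and 2.96 for Itga4. The same ratio was 0.929 for Itgb8, 1.00 for Lama5, 1.07 for Itga8 and 1.14 for Itgb5. For the summed markers of other cells, it was 6.25 for megakaryocytes and platelets (5 of 5 higher in DCKO 1), 3.40 for macrophages (5 of 5), 2.32 for neurons (6 of 6), 1.70 for endothelium (6 of 8), 1.29 for neural progenitors (5 of 7), 0.900 for cranial mesenchyme (2 of 8) and 0.738 for surface ectoderm (3 of 10). Among surface ectoderm markers, the widest gap was that of Krt19 (60.9 and 174 CPM in DCKO 1 and DCKO 2). Cdh1 (87.8 and 42.6) was among the 3 of 10 that were higher in DCKO 1. For mural cells the sum gave 0.713, set by Acta2 (167 and 334 CPM) and Tagln (78.7 and 190), while 4 of 7 markers were higher in DCKO 1. For neural crest and Schwann cell precursors it was 0.168 (0 of 5), the strongest difference towards DCKO 2 among these lists. Summed megakaryocyte and platelet markers were 6.88 and 6.78 CPM in the Control libraries and 33.2 and 5.30 in the DCKO libraries, with no marker at 0 in a group, and 0 of 5 passed. Macrophage markers summed to 17.7 and 22.5, then 57.8 and 17 CPM, and 0 of 5 passed. The part of these cells in the values of Itga2b, Itgb3 and Itga4 was not tested.

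**Figure D4:**
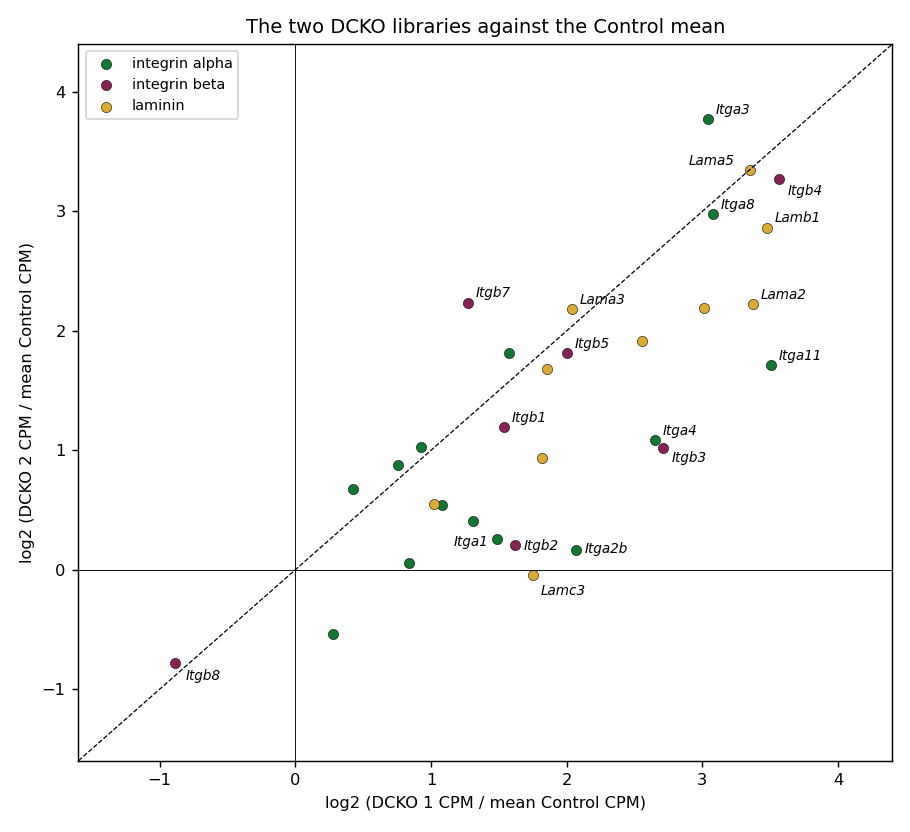
Log2 ratio of each member's CPM to the Control mean, DCKO 1 on the horizontal and DCKO 2 on the vertical axis, for the members described here, coloured by class, without Itgb6 (0 counts in Control) and Itgae (0 counts in DCKO 2). Points on the dashed line have equal values in both; Itga2b, Itgb3, Itga4, Itga11 and Lamc3 lie to the right of it, and Itgb8 is low in both libraries.

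In the authors' deposited table of differential expression, 25 of the 34 members were listed, 22 of them with a false discovery rate under 0.05 as higher and 1, Itgb8, as lower, where 28.8% of its 12574 genes passed, 15.6% as higher. The authors' deposited table shared 18 of the 19 calls made here and did not list Itgb6. It called 5 more, Itga1, Itga2b, Itgb3, Lamb2 and Lamc3, which did not reach the threshold here and of which Itga1, Itga2b, Itgb3 and Lamc3 differed more than 2-fold between the DCKO libraries.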

How the data were processed

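RNA of 4 microdissected cranial neural tubes was sequenced. The authors deposited whole-number read counts per Ensembl gene, without scaling, a table of TPM per gene, and a table of log2 fold changes with p-values and false discovery rates. Its positive values are higher in DCKO, checked against the counts. Without giving roles, the submitters' processing notes list edgeR 3.16.5, limma 3.30.13, R 3.3.2, StringTie, TopHat2 2.1.1, mm10 and GRCm38. Whether counting used strand is not given in the sources used here, and exons of 10 members overlap another gene (8 on the other strand), among them the called Itga4, Itga8, Itgb4 and Lama2, so their counts may hold its reads.

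Counts of all genes were tested with edgeR 4.0.16 in R 4.3.3: filterByExpr (minimum count 10, minimum total 15), scaling by the trimmed mean of M values (TMM, giving CPM) and a quasi-likelihood fit on group, with 2 residual degrees of freedom. Benjamini-Hochberg adjustment ran over all tested genes, two-sided, at 0.05. Each SE is the log2 fold change divided by the square root of F. The fit was run on data simulated with the same relative spread for every gene. Spread differs between genes here, so that run does not give the error rate of these calls. TPM served for levels between genes and shares within a library. A floor of 3 counts per library was 0.0479 to 0.0812 CPM and covers counting error only. Coordinates are GENCODE M21 (GRCm38), to which 54495 of 54532 IDs matched.

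Of the members, 1 counts in the totals but is not reported here, and the others are named. Values in each library are given for members past the threshold with a mean of at least 1 TPM and for the subunits of a pair or trimer in which a subunit passed, and for up to 6 partner genes by smallest p-value. Members and lists were chosen with earlier results of these data known. Alternatives were other scalings and filters, DESeq2 1.42.0 and limma 3.58.1 (voom, or on log2 TPM with a pseudocount of 1 or 0.1). Others left out the ribosomal RNA cluster, X and Y genes or single libraries, or added a replicate block.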

Additional observations from a re-analysis of the deposited data

How the results depend on the processing

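Across settings that kept all libraries and tested counts, no called member changed sign. Counts of calls among the 34 members were 20 with RLE or upper quartile scaling, 16 with library totals (which moved the median of all genes by -0.35), 20 without a count filter or without the ribosomal RNA genes, 19 without X and Y genes, 22 by DESeq2 (25.2% of all genes passed) and 19 by limma-voom. With library totals Itga4 (adjusted p 0.0550), Itga6 (0.0790) and Lama1 (0.0534) did not pass, and 1219 genes were higher and 3744 lower, against 1716 and 1558. Of 19207 tested genes, 3296 passed with RLE scaling, 3235 with upper quartile scaling and 3541 by limma-voom. The counts were 3303 of 19314 without the ribosomal RNA genes, 3164 of 18605 without X and Y genes and 3122 of 30682 without a count filter. On log2(TPM + 1), 14 of 23 tested members and 2603 of 14784 genes passed, and on log2(TPM + 0.1), 10 members and 1752 genes. Over all genes, 4963 passed with library totals, 5040 by DESeq2, 1752 on log2(TPM + 0.1) and 2 on unfiltered log2(TPM + 1), where limma passed 0 members and 0 of the partner list (in edgeR, 25 members and 6896 of all 19207 genes had an unadjusted p under 0.05). The cause was not tested. Log2(TPM + 0.1) gave 3 alpha and 1 beta subunits, and log2(TPM + 1) 2 beta subunits.

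Leaving out a library moved the count over all genes between 227 and 5184, of members between 5 and 24, of alpha subunits between 2 and 9, of beta subunits between 0 and 6, of laminin chains between 3 and 9, and of partners between 7 and 16. With a library left out its group has 1, assumed to vary like the other group. Of members with no call, Itga7 (-0.07) turned positive without Control 2 (0.01) and without DCKO 2 (0.28), in a range from -0.54 to 0.28 over libraries left out. Lamc3 (1.12) turned negative without DCKO 1, in a range from -0.05 to 1.75, and Itgb7 (1.81) turned negative on unfiltered log2(TPM + 1) (-0.04).

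Control and DCKO libraries share replicate numbers but no stated pairing; same-numbered libraries' deviations correlated at -0.081 over 19207 genes. With a replicate block, 1778 genes and 16 members passed, without Itga5 (adjusted p 0.0504), Itga6 (0.0649) and Itgb8 (0.0857). Shares of beta subunits and laminin chains, but not of alpha subunits, were also taken from counts over summed exon length in place of TPM. They moved by more than 1 SD in 19 of 38 values, and 18 of 19 shifts kept their direction, all but Itgb7. By that measure Lamb1 went from 26.8% to 65.6% and Itgb8 from 13.3% to 3.08%. Depth limits the members under about 1 CPM, where a floor of 3 counts is up to 0.0812 CPM.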
